A study of Homo sapiens with 6 samples.

Results

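Lipocalin 2 and 7 other secreted or surface proteins of mucosal defence were followed in H358, a human epithelial cell line that came from a lung cancer of the non-small-cell type. The genes were LCN2, SAA1, SAA2, C3, CFB, SLPI, PI3 and PIGR, taken from the table by symbol, 8 genes of 57150. They were chosen with the knockdown result of LCN2 already known, so their differences between the groups are given as a description, with no p-value, and the number of them past the threshold of the fit over all genes is given as a count from which nothing is read. The cells carried lentiviral short hairpin RNAs against RBM47, an RNA-binding protein, or a control knockdown, with 3 libraries of each, called biological triplicates in the series design. Libraries of polyadenylated RNA gave gene-level FPKM, which is a fragment number corrected for how long the transcript is and how much was mapped in that library. The sources used here give neither the number of hairpins nor the time after infection.

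Epithelia of the airway and gut release a first layer of defence without waiting for immune cells. LCN2 binds bacterial siderophores, the small molecules with which bacteria take up iron. SAA1 and SAA2 are serum amyloid A proteins of the acute phase, which the liver and inflamed epithelia make. C3 is the central protein of the complement cascade and CFB supplies the protease of its alternative pathway. SLPI and PI3 (elafin) are WAP-domain inhibitors of neutrophil elastase, and PIGR carries polymeric IgA across the epithelium. In epithelial cells many of these genes are known targets of NF-kB, its cofactor NFKBIZ and C/EBP factors, downstream of IL-1 and IL-17.

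The promoters of LCN2 and CFB are shown because these genes had the highest levels of the 8 and differed in how they stood between the groups. The RefSeq promoter table, in build GRCh38.p14, matched 3 of the 8 symbols, LCN2, CFB and PIGR. The 250 bases before each transcript start are printed 5′ to 3′ on the gene's strand, with matches to the kappa B letters, GGG and CC with 5 bases of any kind between them, on either strand in capitals. Both lie on the plus strand, LCN2 at chr9:128149203-128149452 and CFB at chr6:31945845-31946094.
LCN2: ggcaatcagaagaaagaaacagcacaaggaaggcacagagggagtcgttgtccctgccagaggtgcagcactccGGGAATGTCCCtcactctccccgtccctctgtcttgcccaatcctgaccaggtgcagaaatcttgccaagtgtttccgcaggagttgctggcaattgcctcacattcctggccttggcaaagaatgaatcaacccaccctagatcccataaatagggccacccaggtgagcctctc
CFB: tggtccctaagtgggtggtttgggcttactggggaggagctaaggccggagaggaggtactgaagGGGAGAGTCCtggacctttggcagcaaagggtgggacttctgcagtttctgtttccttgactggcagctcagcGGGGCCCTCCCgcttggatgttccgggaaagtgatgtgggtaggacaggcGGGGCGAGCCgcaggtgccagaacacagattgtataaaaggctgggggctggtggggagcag
In LCN2 the capitals are a pair of overlapping matches, which begin 176 and 175 bases before the start. In CFB there were 4 matches, beginning 185, 112, 111 and 62 bases before the start, of which those at 112 and 111 overlap. The PIGR window held none. Such a match stood in 54.4% of 35116 promoters of the same length. The C/EBP letters TTNNGNAA matched once in LCN2, 143 bases before the start, and in neither of the others, against 33.2% of promoters. The STAT letters TTCNNNGAA matched in CFB only among the 3 (92 bases before the start, 6.57% of promoters). No match of the 3 motifs overlapped a match of another. These matches are letters in a window and say nothing about binding.

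The 6 libraries carried the knockdown that their labels name. RBM47 stood at 12.01, 13.4 and 13.5 FPKM in the knockdown libraries, against 85.2, 92.4 and 87.9 FPKM in the controls (log2 fold change -2.68, SE 0.06, limma, adjusted p = 2.04e-06). Total FPKM ran from 651951 to 656820 in the knockdown and from 654041 to 673552 in the control libraries. The fragment depth is unknown, and relative depth, read from the lowest values with RBM47 knockdown replicate 1 as 1, was 1.03 for knockdown replicate 2, 1.05 for replicate 3, and 1.09, 1.08 and 1.16 for the control libraries. Of the 10 markers of lung epithelium 8 averaged at least 1 FPKM, led by KRT19 and KRT7, while the surfactant gene SFTPB and the club cell gene SCGB1A1 were listed at 0 in every library. The epithelial markers summed to 3049 to 3124 FPKM in the knockdown and 3642 to 3907 FPKM in the control libraries. The 10 leukocyte and neutrophil markers summed to 23.9 to 32.5 FPKM in the knockdown and 32.6 to 36.01 FPKM in the controls, nearly all of it CD68, and MPO, ELANE, MS4A1 and ITGAM were at 0 throughout. Hepatocyte markers summed to 0.616 to 0.841 FPKM in the knockdown and 0.383 to 1.18 FPKM in the control libraries, with TTR at 0 throughout, and fibroblast and endothelial markers to 11.3 to 13.3 and 14.04 to 16.1 FPKM, nearly all of it COL1A1. The part of these differences in the results was not tested.

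LCN2 was among the most abundant transcripts of these cells, and lower in the knockdown. Its FPKM was 4293, 4129 and 4421 in the knockdown libraries, against 7307, 7108 and 7251 in the control libraries. All 3 knockdown values lay below all 3 control values, and within each group the libraries were close together (coefficient of variation 3.42% in the knockdown and 1.42% in the controls). The means were 4281 ± 146 FPKM in the knockdown and 7222 ± 102.7 FPKM in the controls (SD, n = 3 each), which leaves 59.3% of the mean in controls. The log2 fold change was -0.755 with a standard error of 0.05, on the log2(FPKM + 1) scale used throughout.

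By mean level LCN2 ranked 11 among all genes of the table in the knockdown, against 5 in the controls. It made up 0.654, 0.629 and 0.678% of the total FPKM in the knockdown libraries, against 1.12, 1.06 and 1.08% in the controls. The difference of the means, -2941 FPKM, was the largest fall in FPKM of any gene in the table. This rank follows from the high level of LCN2 together with a moderate fold change, as the plot of level against difference shows. LCN2 lies alone in its locus (ENSG00000148346, chromosome 9, 130911350 to 130915734, hg19), so no overlapping gene of the table shares its reads. In bulk RNA, fewer cells with the transcript and less transcript per cell cannot be told apart.

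**Figure D1:**
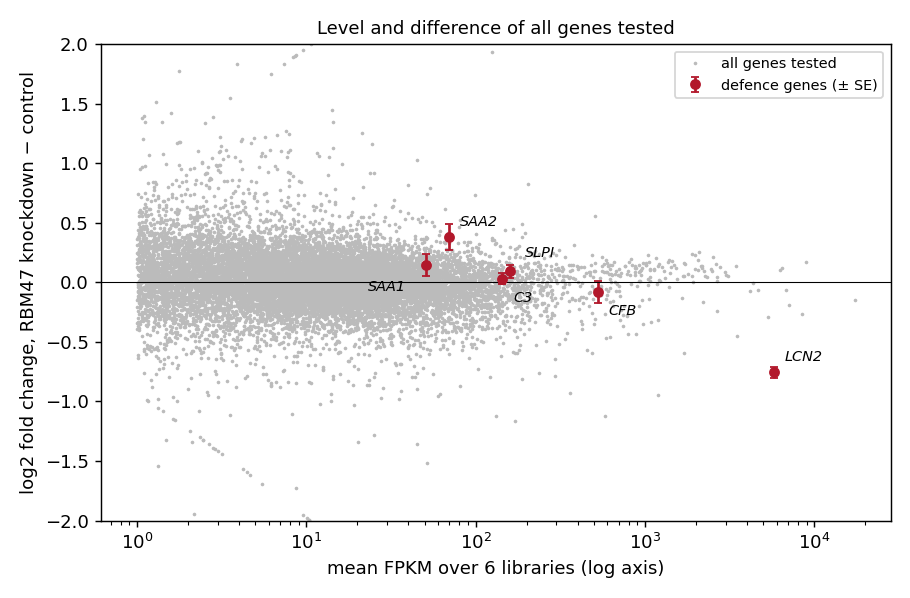
Mean FPKM over the 6 libraries (log axis) against the log2 fold change of RBM47 knockdown over control for all 14419 genes tested (grey), with the 6 tested defence genes in red and their standard errors as bars; 25 genes beyond ±2 are outside the axis. LCN2, at -0.755, stands at the high end of the level axis well below 0, while the other 5 lie between -0.080 and 0.382.

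The acute phase pair SAA1 and SAA2 had higher means in the knockdown, with groups that overlapped. SAA2 was at 68.8, 84.6 and 81.7 FPKM in the knockdown libraries, against 52.3, 68.9 and 58.9 FPKM in the controls (log2 fold change 0.382, SE 0.111). RBM47 knockdown replicate 1, the lowest of its group, lay 0.103 FPKM below control replicate 2, the highest of the controls, so the groups overlapped by this 1 pair. SAA1 was at 56.1, 49.6 and 54.6 FPKM in the knockdown libraries, against 41.6, 51.6 and 52.2 FPKM in the controls (0.144, SE 0.09). Control replicate 1 was the lowest library for both genes, and without it the log2 fold change was 0.04 for SAA1 and 0.289 for SAA2.

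The values of SAA1 and SAA2 depend on how reads common to both were divided. Their coding sequences (GENCODE release 29, transcripts SAA1-201 and SAA2-201, both on chromosome 11) are 97.0% identical, differing at 11 of 369 bases. The stretch from base 217 to the stop codon at base 369 is shown because it holds 10 of the 11 differences, here in capitals.
SAA1: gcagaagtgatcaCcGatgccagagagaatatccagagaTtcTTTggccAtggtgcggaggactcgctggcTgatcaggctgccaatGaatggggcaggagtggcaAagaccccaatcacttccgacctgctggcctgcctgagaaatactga
SAA2: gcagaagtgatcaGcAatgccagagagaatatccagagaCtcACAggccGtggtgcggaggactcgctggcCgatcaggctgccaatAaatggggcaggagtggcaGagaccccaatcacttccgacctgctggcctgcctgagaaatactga
The longest identical run was 186 bases, and 42.8% of all windows of 50 bases at the same position were identical. Only coding bases were compared. The libraries were paired-end per their labels, and the share of fragments common to both genes was not measured. The summed FPKM of both genes was 124.9, 134.2 and 136.3 in the knockdown libraries, against 93.9, 120.4 and 111.1 in the controls. The sums did not overlap, at 131.8 ± 6.09 FPKM in the knockdown and 108.5 ± 13.5 FPKM in the controls (SD, n = 3 each), 121.5% of the control level. Summing was chosen after the values were seen, and nothing is read from this separation. Groups did not overlap for 34.0% of all genes tested (17.3% higher). The ratio of SAA2 to SAA1 was 1.23, 1.71 and 1.495 in the knockdown libraries and 1.26, 1.34 and 1.13 in the controls, with overlapping groups. SAA2 shares its locus (chromosome 11, 18252896 to 18270190, hg19) with 3 other genes of the table, among them SAA4, which stood at 1.89, 3.04 and 3.18 FPKM in the knockdown and 2.24, 3.29 and 3.44 FPKM in the controls.

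The complement genes C3 and CFB were expressed at similar levels in both groups. C3 was at 150.7, 145.2 and 138.5 FPKM in the knockdown libraries, against 141.9, 140.1 and 142.5 FPKM in the controls (log2 fold change 0.03, SE 0.04). The control values lay inside the range of the knockdown values. CFB was at 484.3, 469.6 and 585.6 FPKM in the knockdown libraries, against 500.2, 584.0 and 538.8 FPKM in the controls (-0.080, SE 0.09). Its knockdown libraries spread more widely than those of the other highly expressed members, with replicate 3 above every other library. CFB was the only one of the 8 symbols with a second row, which held at most 0.256 FPKM in any library, in the same locus of 4 genes (chromosome 6, 31865562 to 31919861, hg19).

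SLPI was also close in both groups, and PI3 and PIGR were barely detected. SLPI stood at 175.5, 161.4 and 159.5 FPKM in the knockdown libraries, against 148.03, 156.3 and 160.5 FPKM in the controls (log2 fold change 0.09, SE 0.05), with overlapping groups. PI3, the other WAP-domain elastase inhibitor, was listed at 0 in 2 knockdown libraries and at 0.151 FPKM in replicate 3, against 0 in 2 control libraries and 0.269 FPKM in control replicate 3. PIGR was at 0.04, 0.883 and 0.08 FPKM in the knockdown libraries, against 0.269, 0.155 and 0.145 FPKM in the controls. RBM47 knockdown replicate 2 stood apart for PIGR, and without it the knockdown values lay below the controls. Both genes fell under the mean of 1 FPKM that testing required, and no fold change is given for them. The relative depth was estimated as higher in the controls, and its part in these low values was not tested.

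**Figure D2:**
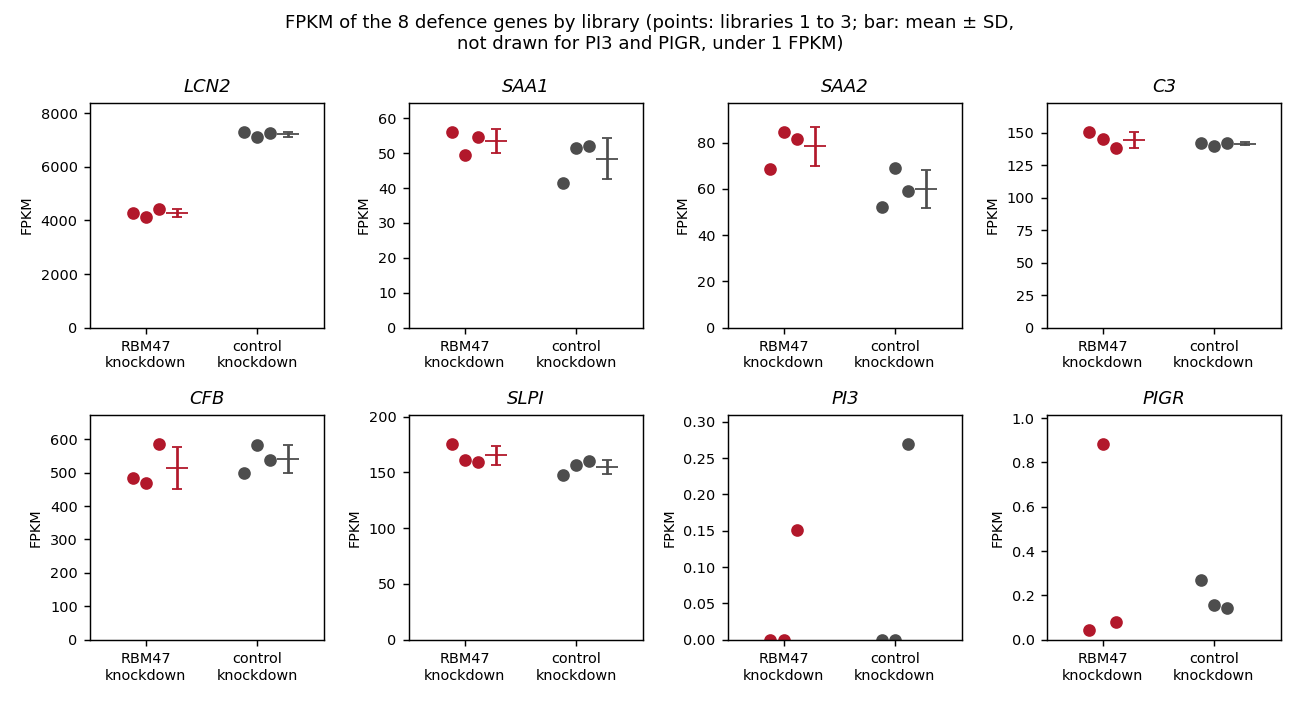
FPKM of the 8 defence genes in each library, RBM47 knockdown in red on the left and control knockdown in grey on the right of each panel, with the mean ± SD (n = 3) beside the points except for PI3 and PIGR. The groups are separate for LCN2 (4129 to 4421 against 7108 to 7307 FPKM) and overlap for the other 7 genes; each panel has its own axis, which starts at 0.

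In both groups the order of mean levels, which FPKM allows since it is per length, was LCN2, CFB, SLPI, C3, SAA2, SAA1, PIGR and PI3. The ranges of SLPI and C3 did not overlap within either group, nor did those of SAA2 and SAA1, while PIGR and PI3 overlapped in both. In the controls the lowest SAA2 value, 52.3 FPKM, lay just above the highest SAA1 value, 52.2 FPKM. The order of these 2 genes also depends on how shared reads were divided. Of the 8 genes 6 could be tested, and 1 of them, LCN2, was past the threshold of adjusted p under 0.05 in limma over all 14419 genes, where 11.4% of all genes were past it (6.34% lower and 5.10% higher). LCN2 was also the 1 member of the 6 whose groups did not overlap, which was so for 34.0% of all genes tested (16.8% lower and 17.3% higher). Nothing is read from these counts, since the members were chosen on the same contrast. The median log2 fold change of the 6 was 0.06, against 0.006 over all genes tested.

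The genes whose profile over the 6 libraries was nearest to that of LCN2 were BBC3, SQSTM1, ULBP1, ULBP2 and CYP24A1. The measure was the root mean square difference of log2(FPKM + 1) values, each centred on the gene's own mean, over 7989 genes that averaged 10 FPKM or more and whose symbol occurs once. It was 0.0411 for BBC3, a BH3-only death protein, 0.0447 for SQSTM1, an autophagy receptor, and 0.051 for CYP24A1, which degrades vitamin D. For ULBP1 and ULBP2, ligands of the NKG2D receptor of killer cells, it was 0.0459 and 0.0503. All 5 had lower values in each knockdown library, with log2 fold changes of -0.705, -0.815, -0.690, -0.837 and -0.791 in the order first named. This direction and size follow from the choice of genes by nearness to LCN2 in the same libraries, so nothing is read from them.

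Other genes of iron handling were partly lower, those of iron storage and export included. The list had 20 genes, 9 of them tested; 3 were lower and 6 not past the threshold, with none higher (limma, adjusted p under 0.05; at an unadjusted p under 0.05, 1 was higher and 5 lower; 1 higher without the trended prior and with array weights; median -0.178). FTH1, the ferritin heavy chain that stores iron, fell to 2978 ± 302 FPKM in the knockdown, against 4045 ± 129 FPKM in the controls (SD, n = 3 each; log2 fold change -0.446, SE 0.07, limma, adjusted p = 0.0102). SLC40A1, the iron exporter ferroportin, had -0.367 (adjusted p = 0.0128), and TFRC, the transferrin receptor through which iron enters, -0.178 (0.0355). Over the fits that left out 1 library each, adjusted p ran from 0.00551 to 0.0582 for FTH1, from 0.0324 to 0.0558 for SLC40A1 and from 0.0475 to 0.114 for TFRC. With RBM47 knockdown replicate 1, 2 or 3 left out, 2, 0 or 4 genes were lower; with control replicate 1, 2 or 3 left out, 1, 0 or 2 were. With no filter on low values 1 was lower.

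Few other genes of the acute phase list were expressed, and the called protein and the called receptor differed in direction. The list had 20 genes, 4 of them tested, of which 1 was lower and 1 higher (median -0.134). SAA4 and PTX3 had -0.114 and -0.155, not past the threshold (limma, adjusted p = 0.729 and 0.554). CP, the copper protein ceruloplasmin, which oxidises iron, fell to 262.8, 253.1 and 250.5 FPKM in the knockdown libraries, against 362.3, 381.7 and 355.5 FPKM in the controls. Its log2 fold change was -0.519 (SE 0.04, limma, adjusted p = 0.00136), and the call held without any 1 library (0.00526 to 0.0152). SCARB1, a lipoprotein receptor that also binds SAA, had 0.247 (adjusted p = 0.0397) and lost its call without any 1 library (0.0615 to 0.113), with no filter, without the trended prior and with the replicate block.

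Among complement genes other than the 2 members, an inhibitor in fluid and 2 on the surface moved in opposite directions. Of 36 genes 35 were in the table and 15 could be tested, of which 1 was higher, 2 lower and 12 not past the threshold (median -0.005). CFI, the protease that cuts C3b, rose to 80.6, 75.4 and 75.4 FPKM in the knockdown libraries, against 58.3, 62.4 and 63.1 FPKM in the controls (log2 fold change 0.328, SE 0.05, limma, adjusted p = 0.00843). Its call held without any 1 library (0.0189 to 0.0356). CD46, the membrane cofactor of CFI, and CD55, which dismantles C3 convertases, had -0.243 and -0.183 (adjusted p = 0.0187 and 0.019). Each of these 2 lost its call when RBM47 knockdown replicate 1 or 2 was left out, and when control replicate 2 or 3 was (highest 0.0709 and 0.071), and then none of the list was lower. None was lower without the trended prior or with the replicate block either, and 1 was with quantile normalization.

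Of the genes listed beside SLPI and PI3 as WAP proteins or protease inhibitors, WFDC2 rose and 3 fell. The list had 31 genes, 14 of them tested; 1 was higher, 3 lower and 10 not past the threshold (median -0.153). WFDC2, a secreted WAP-domain protein known as HE4, rose to 212.1, 218.8 and 201.7 FPKM in the knockdown libraries, against 151.8, 163.2 and 170.8 FPKM in the controls. Its log2 fold change was 0.379 (SE 0.06, limma, adjusted p = 0.00668), and this call held without any 1 library (0.0127 to 0.0386). WFDC3, the other WAP-domain gene of the list that was tested, had -0.635 (SE 0.221) and was not past the threshold (limma, adjusted p = 0.108). CSTB and CST3, cystatins that block cysteine proteases, had -0.515 and -0.203 (adjusted p = 0.0118 and 0.0459), and SPINT1, an inhibitor of membrane serine proteases, -0.196 (0.0265). Over the fits without 1 library adjusted p ran from 0.00884 to 0.0564 for CSTB, from 0.0776 to 0.144 for CST3 and from 0.0475 to 0.0949 for SPINT1. With RBM47 knockdown replicate 1, 2 or 3 left out, 1, 0 or 1 genes were lower; with control replicate 1, 2 or 3 left out, 2, 0 or 0 were. With no filter, without the trended prior or with the replicate block 1 was lower. Higher genes numbered 2 without RBM47 knockdown replicate 3, with a filter at 5 FPKM, with each of the 3 scalings and with array weights.

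Nearly all other mucosal secretions fell under the level that testing required, as did PIGR and PI3. Of 38 genes of antibody transport, antimicrobial peptides, peroxidases and surfactant proteins 37 averaged under 1 FPKM, and 20 were listed at 0 in every library. The highest of the 37 was LPO, at a mean of 0.9945 FPKM. The 1 gene tested was FCGRT, the IgG transport receptor, at 35.6, 31.9 and 24.5 FPKM in the knockdown libraries, against 30.5, 31.1 and 33.3 FPKM in the controls (log2 fold change -0.06, SE 0.122, limma, adjusted p = 0.798).

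Cytokines and receptors that are known to induce these genes moved in both directions. The list had 38 genes, 25 of them tested; 6 were higher, 3 lower and 16 not past the threshold (median 0.09). IL6, the main inducer of SAA in liver, stood at 16.5, 16.3 and 20.4 FPKM in the knockdown libraries, against 6.95, 10.9 and 9.53 FPKM in the controls (log2 fold change 0.900, limma, adjusted p = 0.0119). Among receptors LIFR, which binds a cytokine of the IL-6 family, had 0.437 (adjusted p = 0.0105) and TLR1, a receptor for bacterial lipopeptides, 0.618 (0.0236). The IL-1 receptor IL1R1 rose to 13.3 ± 0.389 FPKM in the knockdown, against 9.68 ± 0.165 FPKM in the controls (SD, n = 3 each; 0.420, adjusted p = 0.00574), and its ligand IL1A had -0.553 (0.0482). The remaining calls were IL18 and OSMR, higher, and IFNGR1 and IFNGR2, lower; these 4 and IL1R1 were named after their values were seen. The IL-17 receptor chains IL17RA and IL17RC, also named after their values were seen, had -0.10 and 0.09 (adjusted p = 0.637 and 0.425). Without 1 library the calls of IL6, IL1R1 and IL18 held each time (highest adjusted p = 0.0448, 0.0351 and 0.0477). The call of OSMR was lost in each of these 6 fits (0.0622 to 0.148), that of IFNGR1 in 5 and that of IFNGR2 in 4 (highest 0.139 and 0.108). That of LIFR was lost without RBM47 knockdown replicate 2 (0.0502), that of TLR1 was kept only without RBM47 knockdown replicate 1 (0.0228), and that of IL1A only without replicate 3 (0.0143). Lower genes numbered 0, 0 or 4 when RBM47 knockdown replicate 1, 2 or 3 was left out and 1, 0 or 0 when control replicate 1, 2 or 3 was. Higher genes numbered 3 without RBM47 knockdown replicate 2. With no filter or without the trended prior none was lower, and 1 was with equal totals, with equal upper quartiles or with the replicate block.

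**Figure D3:**
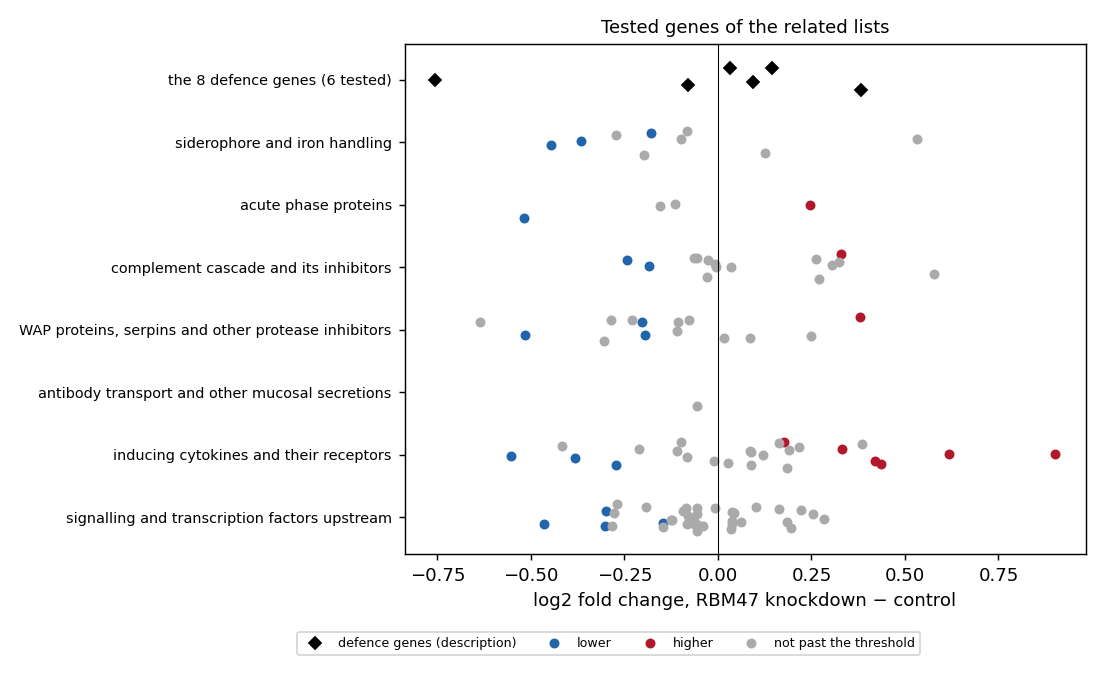
Log2 fold change of RBM47 knockdown over control (horizontal axis) for the tested defence genes (black, top row) and for the tested genes of 7 related lists, one row each, coloured by limma's call (blue lower, red higher, grey not past the threshold); the vertical scatter in a row has no meaning. LCN2, at -0.755, lies left of every list gene shown, and IL6, at 0.900, lies farthest right.

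The signalling and transcription factors upstream of these genes mostly stayed short of the threshold. The list had 40 genes, 36 of them tested; 4 were lower and 32 not past the threshold, with none higher (limma; at an unadjusted p under 0.05, 6 were higher and 7 lower; 1 higher each with array weights, with quantile normalization and with the same total FPKM; median -0.06). CEBPG, a C/EBP factor, fell to 22.5, 22.1 and 23.8 FPKM in the knockdown libraries, against 35.1, 30.4 and 30.1 FPKM in the controls (log2 fold change -0.464, SE 0.07, limma, adjusted p = 0.00752). Its call held without any 1 library (0.0176 to 0.042). The kinases CHUK, which activates NF-kB, and JAK1, which signals for cytokine receptors, had -0.302 and -0.300 (adjusted p = 0.0332 and 0.0224), and the epithelial factor ELF3 -0.148 (0.0447). CHUK and ELF3 lost their calls without any 1 library (highest 0.109 and 0.140), and JAK1 kept its call only without RBM47 knockdown replicate 3 (0.0098). Lower genes numbered 1 in each of the fits without 1 library except that without RBM47 knockdown replicate 3, where they numbered 4 and 1 was higher. They numbered 7 with array weights, 2 without the trended prior, and 1 with no filter or with the replicate block.

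The factors best known upstream of LCN2, named here after their values were seen, were not past the threshold in the fit used throughout. NFKBIZ was at 45.01, 49.7 and 55.5 FPKM in the knockdown libraries, against 57.0, 54.2 and 52.2 FPKM in the controls (log2 fold change -0.124, SE 0.08, limma, adjusted p = 0.338). RELA and NFKB1, subunits of NF-kB, had 0.04 and -0.148 (adjusted p = 0.659 and 0.218). CEBPB and CEBPD had -0.09 and 0.04 (0.188 and 0.631), and STAT3 0.163 (0.0604). The groups did not overlap for CEBPB, lower in the knockdown, and STAT3, higher, which was so for 34.0% of all genes tested. They overlapped for NFKBIZ, RELA, NFKB1 and CEBPD. STAT3 passed the threshold with the same total FPKM (0.0441), with quantile normalization (0.0435) and with array weights (0.0419). Over all 7 lists 104 genes were tested, of which 9 were higher and 16 lower, 8.65% and 15.4%, against 5.10% and 6.34% of all genes tested, with a median of -0.06. The lists were chosen with earlier results of these data known, so nothing is read from these shares. Lower genes numbered 5, 2 or 16 when RBM47 knockdown replicate 1, 2 or 3 was left out and 8, 2 or 4 when control replicate 1, 2 or 3 was, and higher genes 5 to 8, the 5 without RBM47 knockdown replicate 2.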

How the data were processed

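RNA of H358 cells, RBM47 knockdown and control knockdown with 3 libraries each, was measured with stranded mRNA libraries, per the labels' protocols. The authors deposited one table of FPKM for 57150 genes. Per the submitters' processing notes, TopHat 1.4.1, Cuffdiff 2.2.0 and hg19 were used; the sources used here do not give the scaling between libraries or the use of strand. Loci are the table's own, with starts counted from 1, and genes that overlap share one locus there.

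FPKM are not counts, so the trended-prior test of limma 3.58.1 (R 4.3.3) was run on log2(FPKM + 1), knockdown against control, over the 14419 genes that averaged 1 FPKM or more, with Benjamini-Hochberg adjusted p under 0.05. The pseudocount understates changes of low genes. The fragment depth is unknown; relative depth is the most frequent ratio of values under 0.3 FPKM between libraries, within 0.02 on the log2 scale, over 713 to 727 genes. Each p-value sets the difference between groups against the spread between these libraries, which limma moderates with that of genes of similar level. Where a symbol had several rows, the row with the highest mean was kept.

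The members and lists were chosen with earlier results of these data known. Named from each list were up to 4 called genes, by absolute log2 fold change, or where none was called up to 2, by mean. Alternatives were pseudocounts of 0.1 and 0.5, a filter at 5 FPKM or none, 3 scalings, array weights, no trend, a block for the replicate number, summed rows of a symbol and leaving out each library. The steps were tested on simulated data in which 200 of 14419 genes were raised. Of those raised by a log2 fold change of 0.5, 52% were called, and 91% at 1.0. The fit of the real data called 11.4% of genes, in both directions, so the shares it recovers may differ. Genes not past the threshold are therefore not shown to be unchanged. One gene is not reported here. Figures used matplotlib 3.10.9 (Python 3.11.15).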

Additional observations from a re-analysis of the deposited data

How the results depend on the processing

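The log2 fold change of LCN2 was negative under each of 16 alternatives, from -0.778 to -0.661, the last with quantile normalization. It was -0.755, as in the main fit, with either pseudocount, either filter setting, no trend and the replicate block. These settings could hardly move the value at so high a level, so they are no check on it. LCN2 was chosen on this contrast, and nothing is read from its sign. No other tested member changed its sign under any alternative. The members past the threshold numbered 2 instead of 1 under a filter at 5 FPKM, with equal totals, with quantile normalization and with the replicate block. Over all genes 1652, 1700, 1710 and 837 were past it under these settings, in that order. Nothing is read from the count of members, since they were chosen on the same contrast. The 1650 calls over all genes (736 higher, 914 lower) became 916 (366 and 550) with no filter and 837 (348 and 489) with the replicate block. Without 1 library they numbered 630 to 1255 (235 to 483 and 395 to 772). Of the list genes, 16 were lower, but 6 with no filter, without the trended prior or with the replicate block, and 2 to 16 without 1 library. The higher ones, 9, numbered 5 to 8 without 1 library. For these counts the cause was not tested, except that fits without 1 library have fewer libraries. Same-numbered libraries did not deviate together (r = 0.02, -0.10 and 0.08), so the replicate numbers were not taken as pairs. The fragment depth is unknown, so no detection limit is given for PI3 and PIGR.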
